A study of Mus musculus with 20 samples.

Results

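Mt1, Mt2 and Mt3 are 3 metallothionein genes, taken here by symbol from the 31053 genes counted in single-cell libraries of the mouse basolateral amygdala (BLA). They are nuclear genes and are unrelated to the mitochondrial genes, whose symbols also begin with mt. Metallothioneins are small cysteine-rich proteins that bind zinc and copper ions. Mt1 and Mt2 are made in many tissues and are induced by metals, through the zinc-sensing factor MTF1, and by glucocorticoids. Mt3 is the brain form, long known as a growth inhibitory factor, and is not induced by metals in the same way. In brain, astrocytes are the best known source of Mt1 and Mt2, and Mt3 has been described in astrocytes and in zinc-rich neurons.

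Libraries of the BLA came from 10 male C57BL/6 mice aged 13 weeks, 1 library per mouse. All mice had 6 weeks of corticosterone (CORT, 35 µg/ml) or of the cyclodextrin vehicle BCD in the drinking water. All then had an intraperitoneal injection of ketamine (Ket, 10 mg/kg) or saline (Sal), 24 h before the tissue was taken. Mice 9901 and 9947 formed the BCD/Sal group, mice 9946, 9949 and 9986 formed BCD/Ket, mice 9969 and 9970 formed CORT/Sal, and mice 9967, 9968 and 9971 formed CORT/Ket. The dissected tissue was not sorted for any cell type.

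The libraries held between 811628 and 7281768 UMIs (unique molecular identifiers, 1 per captured RNA molecule), and 8305 of 28722 barcodes had a mitochondrial share at or below the study's limit and at least 200 genes. These were grouped into 15 clusters, of which 11 were named as astrocyte-like, endothelial-like and so on from marker genes, and the suffix is left out below. The 3349 barcodes in the 4 other clusters stayed unnamed. Of these, 2358 formed a cluster led by Gng13, Bc1, Ddn and haemoglobin genes, and 99.5% of it came from mouse 9970. That library stood apart, with 97.1% of its barcodes kept against 16.8% to 31.0% in the others, and gave 0 astrocytes. Mice 9946, 9947, 9967 and 9970 had under 10 microglia each, so some of the results that rest on them are also given without them. Among the kept barcodes, 21 barcode sequences were found in more than 1 library. The astrocyte class had 13 astrocyte markers among its leading genes, Aqp4, Gja1 and Aldh1l1 among them, and the endothelial class had 8, with Cldn5 and Flt1 among them. The choroid plexus marker Ttr led the ependymal class, so that class may also hold choroid plexus cells or their free RNA.

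The 3 genes lie side by side on the plus strand of chromosome 8. In GENCODE M1 on NCBIM37 (mm9), Mt3 (ENSMUSG00000031760) spans 96676507 to 96678048, Mt2 (ENSMUSG00000031762) 96696518 to 96697467 and Mt1 (ENSMUSG00000031765) 96702989 to 96704225. The whole stretch is 27719 bases long, with 5521 bases between Mt2 and Mt1 and 18469 between Mt3 and Mt2. Mt4, the epithelial member upstream of Mt3, had 0 UMIs among 45582233, which allows a level of up to 0.0658 CPM (counts scaled to the usual fixed library total). The longest run of bases shared by any pair of annotated transcripts was 20 for Mt1 and Mt2, 27 for Mt1 and Mt3 and 20 for Mt2 and Mt3, so reads longer than that could be told apart.

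The promoters are shown because MTF1 acts through metal response elements, and the windows differ in how many letter matches to that element they hold. Each is the RefSeq window from 250 bases before to 50 after the start on GRCm38.p6, plus strand, at chr8:94178839-94179138 for Mt1, chr8:94172368-94172667 for Mt2 and chr8:94152357-94152656 for Mt3. Capitals mark the element's core, searched as TGCACNC and TGCGCNC on both strands.
Mt1: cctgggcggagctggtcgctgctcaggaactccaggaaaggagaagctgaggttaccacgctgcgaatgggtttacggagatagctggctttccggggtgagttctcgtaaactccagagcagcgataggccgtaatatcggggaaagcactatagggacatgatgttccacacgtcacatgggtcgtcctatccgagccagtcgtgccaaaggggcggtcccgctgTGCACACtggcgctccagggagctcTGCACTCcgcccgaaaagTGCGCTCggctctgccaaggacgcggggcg
Mt2: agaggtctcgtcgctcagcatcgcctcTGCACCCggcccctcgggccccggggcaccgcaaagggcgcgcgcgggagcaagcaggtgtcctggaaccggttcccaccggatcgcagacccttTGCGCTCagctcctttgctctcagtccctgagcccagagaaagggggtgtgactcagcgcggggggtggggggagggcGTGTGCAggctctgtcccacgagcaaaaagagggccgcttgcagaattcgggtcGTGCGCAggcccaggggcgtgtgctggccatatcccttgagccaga
Mt3: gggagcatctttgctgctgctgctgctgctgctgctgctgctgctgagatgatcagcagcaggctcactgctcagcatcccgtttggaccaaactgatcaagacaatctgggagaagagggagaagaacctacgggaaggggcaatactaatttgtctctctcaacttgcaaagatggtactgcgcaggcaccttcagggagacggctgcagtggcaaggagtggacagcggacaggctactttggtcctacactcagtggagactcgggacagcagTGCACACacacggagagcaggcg
The Mt1 window held 3 matches, the Mt2 window 4 and the Mt3 window 1. Over all 32851 mouse promoter windows of this length, 25.7% held at least 1 match, 1.97% held 3 or more and 0.52% held 4 or more. The antioxidant response element, searched as TGACNNNGC on both strands, had 1 match in the Mt2 window and 0 in the others, and 12.39% of all windows held it. These are letter matches and not measured binding sites. In each window at least 1 match to the metal element lies in the 50 bases after the start. Sequence beyond the windows was not searched, so the counts describe the windows and not the whole promoters.

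Among kept barcodes, astrocytes carried most of the metallothionein RNA. They were 15.5% of kept barcodes and held 15.1% of kept UMIs, but 55.3% of the kept Mt1 UMIs, 57.5% of Mt2 and 51.2% of Mt3. The next largest shares of kept UMIs came from the unnamed barcodes, with 28.9%, 24.7% and 35.2%. Nearly all of these came from mouse 9970. Its unnamed cluster led by Gng13 held 6240 of the 6404 unnamed Mt1 UMIs, 1038 of 1087 for Mt2 and 5679 of 5936 for Mt3. The pooled shares of all classes therefore depend on that library. Endothelial cells held 7.08% of the kept Mt1, 10.0% of Mt2 and 1.13% of Mt3 UMIs, and excitatory neurons 3.06% of Mt3 and 0.379% of Mt1. Over all barcodes, the named astrocytes held 29.2%, 29.95% and 20.6% of Mt1, Mt2 and Mt3 UMIs, and the barcodes left out for their mitochondrial share, which were given no class, held 47.1%, 47.8% and 59.7%.

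Levels were taken as CPM in the summed counts of each class and mouse, with at least 10 cells. In astrocytes Mt1 stood at 4149.8 CPM in the BCD/Sal mouse 9901, and at 2611, 5238 and 4849.5 in the BCD/Ket mice 9946, 9949 and 9986. Among CORT mice it stood at 5847 CPM in 9969 (CORT/Sal) and at 3869 and 4391 in 9968 and 9971 (CORT/Ket). The lowest value came from the 10 astrocytes of mouse 9946, which held 6129 UMIs, and the other 6 libraries were within a range of 3869 to 5847. Mt2 was the lowest member, at 1117 CPM in mouse 9901, 163, 1179 and 959.8 in the BCD/Ket mice, 1077 in mouse 9969, 719 in mouse 9968 and 859.9 in mouse 9971. The 163 CPM of mouse 9946 was a single UMI, with an exact 95% Poisson interval of 4.13 to 909 CPM. Mt3 stood at 2829 CPM in mouse 9901, at 2121, 4589 and 3252 in the BCD/Ket mice, at 3809 in mouse 9969, at 2438 in mouse 9968 and at 2713 in mouse 9971. All 7 astrocyte libraries had more Mt1 than Mt3 and more Mt3 than Mt2. The tags are read at the 3′ end and are not scaled by gene length, and differences in capture between genes are unknown, so the order of the genes is a statement on UMIs only.

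Every member was higher in astrocytes than in each of the 6 classes that shared at least 6 libraries with them, in every mouse. For Mt1 the difference on the log2(CPM + 10) scale was 2.89 ± 0.38 (SD, n = 7 mice) against endothelial cells, 3.26 ± 0.39 (n = 7) against oligodendrocytes and 5.88 ± 0.72 (n = 7) against excitatory neurons. For Mt2 the nearest class was again the endothelial cells, at 2.28 ± 0.66 (n = 7), and for oligodendrocytes the difference was 4.36 ± 0.73 (n = 7). For Mt3 the nearest was the excitatory neurons, at 2.94 ± 0.47 (n = 7), while endothelial cells stood 5.49 ± 0.78 (n = 7) below astrocytes. All 18 comparisons passed, with a two-sided exact sign-flip permutation p of 0.0156 for 7 mice and 0.0312 for 6, the smallest values these numbers allow. Adjusted over 35 comparisons (Benjamini-Hochberg) they were 0.0456 and 0.0497. As background, between 10.1% (against mural cells) and 28.6% (against microglia) of all genes with a mean of at least 20 CPM were higher in astrocytes of every shared mouse. That share was 14.1% against endothelial cells, 10.4% against excitatory neurons, 13.4% against oligodendrocyte precursor cells and 14.0% against oligodendrocytes.

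**Figure D1:**
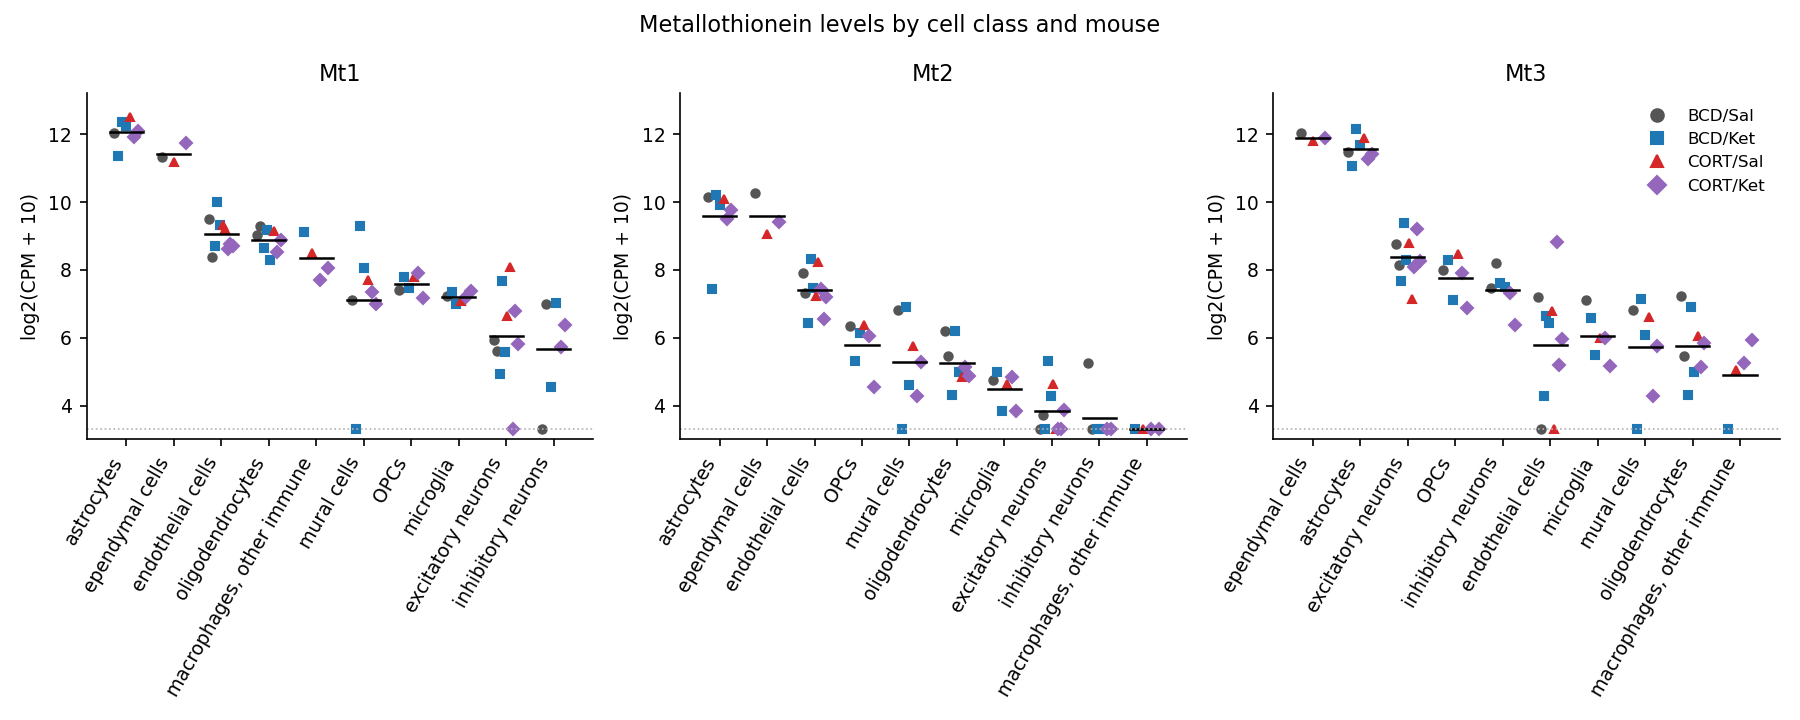
Levels of Mt1, Mt2 and Mt3 as log2(CPM + 10) in each cell class (x axis, ordered by mean CPM); each point is 1 mouse, coloured by group, black bars are means over mice and the dotted line marks 0 UMIs. The means of astrocytes and ependymal cells sit above those of all other classes for every gene, and excitatory neurons rank next for Mt3 but near the bottom for Mt1 and Mt2.

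Ependymal cells, which line the ventricles, were the only other named class near the astrocyte level, and only 3 libraries had 10 or more. Mt1 stood there at 2547, 2295 and 3446 CPM in mice 9901, 9969 and 9971, and Mt2 at 1214, 528 and 674. Mt3 stood at 4159, 3563 and 3757 CPM in these mice, above the astrocytes of mice 9901 and 9971 and below those of mouse 9969. These 3 mice are too few for an exact test at this threshold, and none was run. The class held astrocyte marker RNA at 9.29% to 14.7% of the level in astrocytes of the same mouse.

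Below these, the order of the classes differed between the genes. For Mt1 it ran from endothelial cells (551.7 ± 207 CPM, SD, n = 10) and oligodendrocytes (470.6 ± 111, n = 8) to macrophages and other immune cells (338 ± 153, n = 4), mural cells (211 ± 198, n = 7), oligodendrocyte precursor cells (185 ± 37.1, n = 6), microglia (138 ± 14.9, n = 6), excitatory neurons (84.1 ± 83.2, n = 10) and inhibitory neurons (61.2 ± 51.6, n = 6). Endothelial cells and oligodendrocytes did not differ beyond their spread (0.21 ± 0.60 on the log2 scale, n = 8 mice, exact sign-flip p = 0.32). Oligodendrocytes were above mural cells by 1.69 ± 1.79 (n = 7, exact p = 0.0312, adjusted 0.0497). Without mouse 9946, whose 11 mural cells had 0 Mt1 UMIs, the difference was 1.08 and did not pass, and the call was also lost without each of mice 9901, 9986, 9969, 9968 and 9971, which leave 6 mice. No other neighbouring pair tested for Mt1 passed.

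For Mt2 the endothelial cells (175 ± 79.5 CPM, n = 10) were above oligodendrocyte precursor cells (50.7 ± 24.0, n = 6), with a difference of 1.65 ± 0.98 on the log2 scale (n = 6 mice, exact sign-flip p = 0.0312, adjusted 0.0497). Oligodendrocytes (31.9 ± 20.4 CPM, n = 8) were above microglia (13.4 ± 7.43, n = 6) by 0.89 ± 0.52 (n = 6 mice, exact p = 0.0312, adjusted 0.0497). Both calls were lost with the barcodes of the highest doublet scores (Scrublet) removed (exact sign-flip adjusted p = 0.0503). Neurons had almost no Mt2. Excitatory neurons had 9 UMIs over 10 mice and were at 0 in 5 of them, and inhibitory neurons had 1 UMI over 6 mice. Macrophages and other immune cells had 0 Mt2 UMIs in 4 mice beside 39 Mt1 UMIs.

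Among the named classes, the excitatory neurons came next for Mt3 after ependymal cells and astrocytes. Their level was 422 CPM in mouse 9901 and 273 in 9947 (BCD/Sal), 193, 654 and 302 in mice 9946, 9949 and 9986 (BCD/Ket), 432 and 132 in mice 9969 and 9970 (CORT/Sal), and 261, 577 and 296 in mice 9967, 9968 and 9971 (CORT/Ket). The value of mouse 9970 was a single UMI among 7583. The 4 groups overlapped. An unnamed cluster of 907 barcodes, led by Cpne7, which is among the excitatory markers used, gave 131 ± 73.8 CPM of Mt3 (n = 8 libraries). Another of 67 barcodes gave 2034 ± 1218 CPM (n = 3). It also held 1543 ± 804 CPM of Mt1 and 521 ± 427 of Mt2, where the named excitatory neurons averaged 84.1 and 6.2. Whether either of these 2 unnamed clusters holds excitatory neurons was not tested, and neither cluster entered a comparison. Excitatory neurons were above oligodendrocyte precursor cells (225 ± 92.4 CPM, n = 6) by 1.01 ± 0.39 on the log2 scale (n = 6 mice, exact sign-flip p = 0.0312, adjusted 0.0497). The difference was 0.29 with a mitochondrial limit of 5% and 0.24 with coarser clusters, and passed in neither. Inhibitory neurons followed at 172 ± 67.8 CPM (n = 6), and endothelial cells, microglia, mural cells and oligodendrocytes were between 55.4 and 93.2 CPM on average, and no neighbouring pair tested among these passed.

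Single-cell droplets carry free RNA, and astrocyte marker RNA was found in each class set beside astrocytes. Whether that RNA was free RNA from astrocytes or was made in the class itself was not tested. To show how far it could reach, each class's astrocyte marker RNA was taken as a percentage of that in astrocytes of the same mouse, and the member's astrocyte level was scaled by it. Endothelial cells held 0.906% to 4.38% of the astrocyte marker level, and their Mt1 was 3.91 to 17.2 times the scaled level, in all 7 mice. Their Mt2 was 4.75 to 51.2 times it, in all 7 mice, but their Mt3 was 0.492 to 1.30 times it, with a median of 1.11. In oligodendrocytes Mt1 was 2.67 to 8.21 times the scaled level (7 of 7 mice), Mt2 0.983 to 3.37 times and Mt3 0.259 to 1.17 times. In excitatory neurons the pattern was the opposite, with Mt3 at 3.17 to 39.8 times the scaled level in 7 of 7 mice, Mt2 at 0 to 0.82 times and Mt1 above it in 1 of 7.

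Ependymal Mt3 was 10.0 to 11.9 times the scaled level in 3 of 3 mice, Mt3 of inhibitory neurons 2.68 to 11.5 times in 4 of 4, and Mt1 of macrophages and other immune cells 32.6 to 70.8 times in the 3 mice where these held any astrocyte marker RNA. In oligodendrocyte precursor cells Mt1 was below it in all 6 mice, at 0.354 to 0.9 times. In microglia Mt1 was 1.09 to 2.08 times the scaled level (6 of 6 mice), while Mt2 was above it in 2 and Mt3 in 2. Among mural cells Mt1 was above it in 5 of 7 mice. By their medians, Mt3 in endothelial cells, oligodendrocytes, microglia and mural cells was thus near or below the scaled level. So were Mt2 in microglia, Mt1 and Mt2 in excitatory neurons, and every member in oligodendrocyte precursor cells. The median was 0.876 times for Mt2 and 0.846 for Mt3 in precursor cells, 0.587 for Mt2 in microglia and 0.959 for Mt3 in mural cells. Expression there could not be told apart from free RNA. The comparisons between classes used the levels as counted, without this scaling.

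The ratios between the members set the classes apart further. In astrocytes the pooled UMIs gave 0.206 Mt2 per Mt1 and 0.704 Mt3 per Mt1. Oligodendrocytes had 0.0726 Mt2 per Mt1, a ratio lower than in the astrocytes of the same mouse in 7 of 7 mice, by 1.42 on the log2 scale (exact sign-flip p = 0.0156, adjusted 0.0365 over 14 ratios). Endothelial cells had 0.280, higher in 7 of 7 mice by 0.49 (exact p = 0.0156, adjusted 0.0365). Their Mt3 per Mt1 was 0.121, lower in 7 of 7 mice by 2.80 (exact p = 0.0156, adjusted 0.0365). Excitatory neurons had 6.14 Mt3 per Mt1, higher in 7 of 7 mice by 3.05 (exact p = 0.0156, adjusted 0.0365). Microglia had 0.104 Mt2 per Mt1, at a ratio lower in 6 of 6 mice by 1.09, which did not pass (exact p = 0.0312, adjusted 0.0547). These ratio tests were added after the levels had been seen. Those over 7 mice included mouse 9946, which had the fewest astrocytes of the 7, and were not repeated without it.

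**Figure D2:**
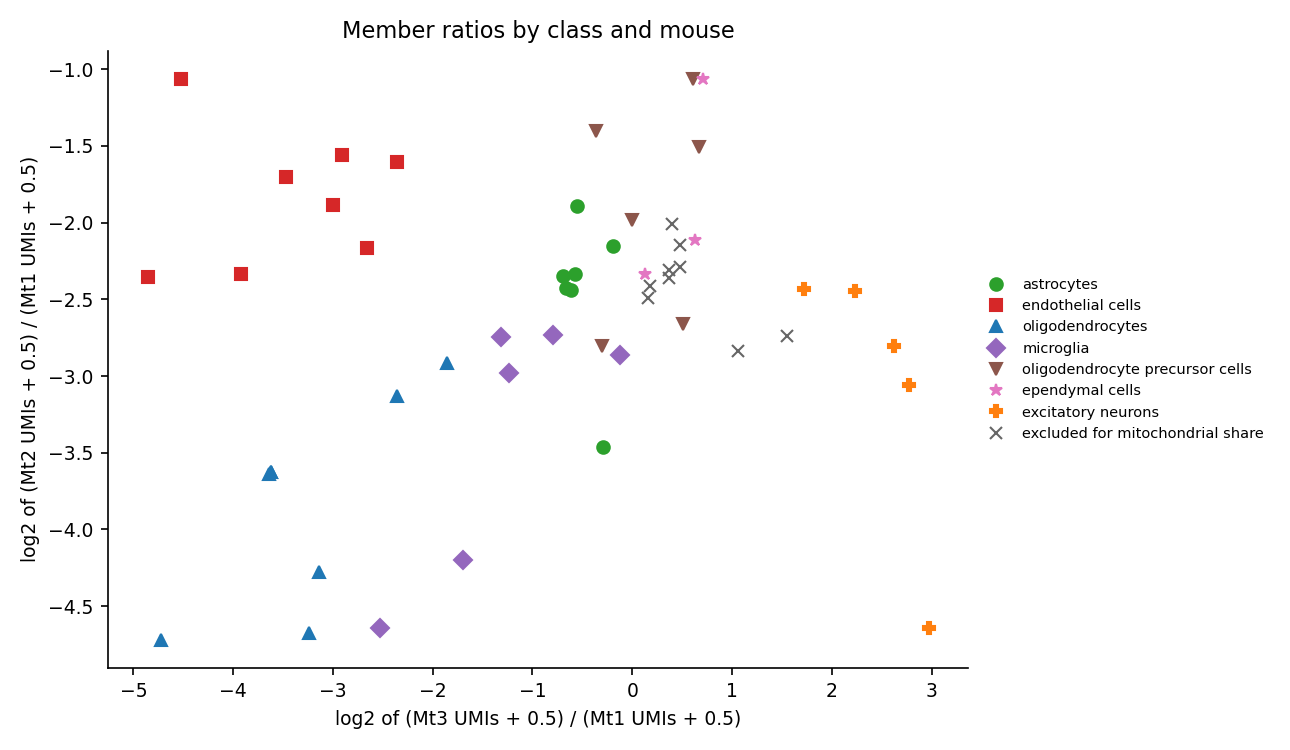
Mt2 per Mt1 (y axis) against Mt3 per Mt1 (x axis), both as log2 of UMI counts with 0.5 added, for each class and mouse with at least 10 Mt1 UMIs. Endothelial cells and oligodendrocytes lie to the left at low Mt3, endothelial cells above oligodendrocytes, and excitatory neurons lie to the right; the barcodes left out for mitochondrial share lie to the right of the astrocytes.

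Within the astrocytes, Mt1 and Mt3 were found in most cells and Mt2 in fewer. Cells were thinned to 500 UMIs each to set libraries of different depth side by side, in the 6 libraries with at least 10 such astrocytes. A UMI of Mt1 was then found in 72.2% ± 5.01 (SD, n = 6 libraries) of astrocytes, a UMI of Mt3 in 63.2% ± 6.33 and a UMI of Mt2 in 30.4% ± 7.81. Unthinned, the shares were 86.7% ± 5.11, 81.2% ± 7.13 and 63.1% ± 11.3. Among thinned microglia, with a median of 1587 UMIs against 1617 in astrocytes before thinning, 6.37% had Mt1, 0.348% Mt2 and 3.01% Mt3. In unthinned counts, where deeper cells rank higher, the 10% of astrocytes with the most Mt1 held 32.0% to 35.1% of a library's Mt1 UMIs.

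**Figure D3:**
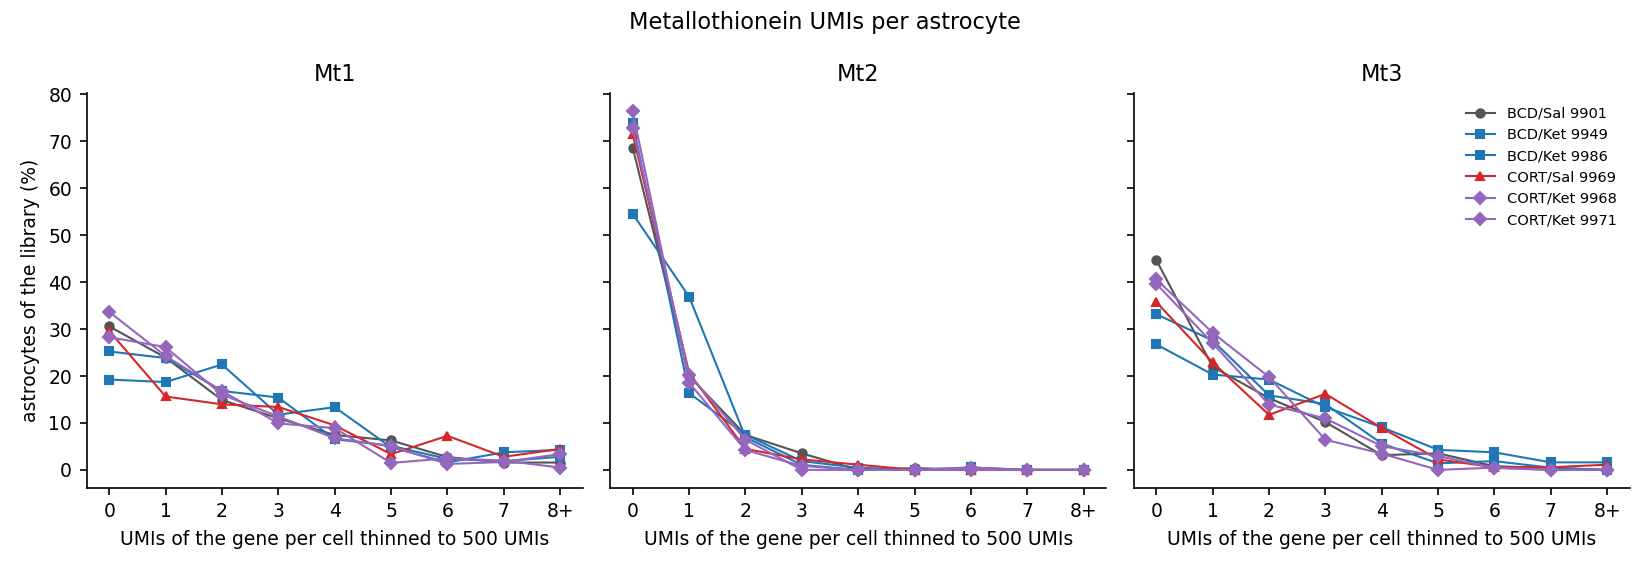
Share of the astrocytes of each library (y axis, percent) by the number of UMIs of Mt1, Mt2 or Mt3 in the cell after thinning to 500 UMIs (x axis), with 1 line per library coloured by group. Most curves are highest at 0 UMIs, that of Mt1 in mouse 9949 is highest at 2 UMIs, and between 19.3% and 33.7% of astrocytes had 0 UMIs of Mt1.

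From cell to cell, the thinned counts of the members were correlated only in part. Pearson's r was taken across single astrocytes of a library, on a log2 scale of the thinned counts. It was 0.151 to 0.412 for Mt1 and Mt2, 0.373 to 0.519 for Mt1 and Mt3, and 0.121 to 0.301 for Mt2 and Mt3 over the 6 libraries. The thinned counts were low, with means of 0.295 to 0.572 UMIs per cell for Mt2, 1.05 to 2.04 for Mt3 and 1.63 to 2.49 for Mt1. Counting error at this depth lowers r, so the values do not show how closely the members vary together. These cells also share a library, so the values are a description. Over the 7 astrocyte sums, r was 0.90 for Mt1 and Mt2, 0.87 for Mt1 and Mt3 and 0.72 for Mt2 and Mt3 on the log2(CPM + 10) scale. Without mouse 9946 they were 0.65, 0.87 and 0.79.

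The genes whose pattern over 67 class-by-mouse sums was most like each member were found by Pearson's r among 8752 genes with a mean of at least 20 CPM. For Mt1 they were Mt2 (r = 0.82), Gstm1 (0.80), Hist1h2bc (0.79), Htra1 (0.77) and Prdx6 (0.76). For Mt2 they were Slc38a3 (0.84), Gja1 (0.83), Mt1 (0.82), Gstm1 (0.81) and Msi2 (0.81). Mt3 had a different set, Scg3 (0.85), Fjx1 (0.85), Cpe (0.84), Wwc1 (0.84) and Slc4a4 (0.83), and its r with Mt1 was 0.45 and with Mt2 0.56. Gja1 encodes the astrocyte gap junction protein connexin 43, Gstm1 a glutathione transferase, Scg3 a secretory granule protein and Cpe a prohormone-processing carboxypeptidase. Over the 7 astrocyte sums alone the genes most like each member were Lsm5 (0.99), Zic5, Cdc37, Atxn7l3b and Lhx2 for Mt1, Sbf1 (1.00), Smim4, Tulp3, Eif2s2 and Atp5k for Mt2, and Rps27 (0.97), Prmt1, Gpi1, Rpl39 and Smim3 for Mt3. With 7 points among 7022 genes such values are a description only.

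Whether corticosterone or ketamine changed the members was tested where libraries and counts allowed, since glucocorticoids are known inducers of Mt1 and Mt2. For each treatment this gave 17 tests of a member in a class, over 8 classes. Mt2 could be tested only in astrocytes and endothelial cells, and in inhibitory neurons only Mt3 could. Inhibitory neurons had no CORT/Sal library with enough cells. Their corticosterone test of Mt3 is therefore the same as CORT/Ket against BCD/Ket, and their ketamine test the same as BCD/Ket against BCD/Sal. Each is counted under both names in the total below. Ependymal cells, fibroblasts, and macrophages and other immune cells could not be tested. No member passed in any class where it was tested. Of 74 tests of a member in a class and comparison by edgeR's quasi-likelihood test, 0 had an adjusted p under 0.05, 5 had an unadjusted p under 0.05, and DESeq2 gave 0 and 0. The 5 were Mt2 in endothelial cells for CORT against BCD and for CORT/Ket against BCD/Ket, Mt3 in microglia for CORT against BCD, and Mt1 and Mt3 in mural cells for CORT/Ket against BCD/Ket. The share of all genes with an unadjusted p under 0.05 was not set beside this count, so it does not set the members apart from other genes. Few genes passed at all. For corticosterone the share of all tested genes called was 0.0385% in astrocytes, 0.186% in endothelial cells and 0.172% in oligodendrocytes, and for ketamine 0.0155% in endothelial cells and 0.0537% in excitatory neurons. For CORT/Ket against BCD/Ket it was 0.0128% in astrocytes, 0.0776% in endothelial cells, 0.0286% in oligodendrocytes and 0.422% in oligodendrocyte precursor cells, for CORT/Sal against BCD/Sal 0.0931% in endothelial cells and for BCD/Ket against BCD/Sal 0.0286% in oligodendrocytes. In the other 23 of 34 comparisons it was 0. The mice of a group are separate animals.

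In astrocytes the estimates were close to 0 with wide intervals, from 4 BCD and 3 CORT libraries. For CORT against BCD, with ketamine as a term, the log2 fold change was 0.21 ± 0.64 (SE, edgeR adjusted p = 1.00) for Mt1, with a 95% interval of -1.04 to 1.46. It was -0.13 ± 0.44 for Mt2 and -0.05 ± 0.60 for Mt3 (-1.22 to 1.13). For Ket against Sal it was -0.33 ± 0.69 for Mt1, -0.42 ± 0.47 for Mt2 and -0.25 ± 0.65 for Mt3. Only mouse 9901 stood for BCD/Sal and only mouse 9969 for CORT/Sal. Without mouse 9946, which held 10 astrocytes, the corticosterone estimate was -0.05 for Mt1, with an interval of -0.39 to 0.29, -0.34 for Mt2 (-0.73 to 0.06) and -0.29 for Mt3 (-0.66 to 0.08). The smallest edgeR adjusted p among these 3 was 0.99. For CORT/Ket against BCD/Ket, Mt3 was -0.22 ± 0.89 with that mouse and -0.64 ± 0.20 without it (edgeR adjusted p = 1.00).

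**Figure D4:**
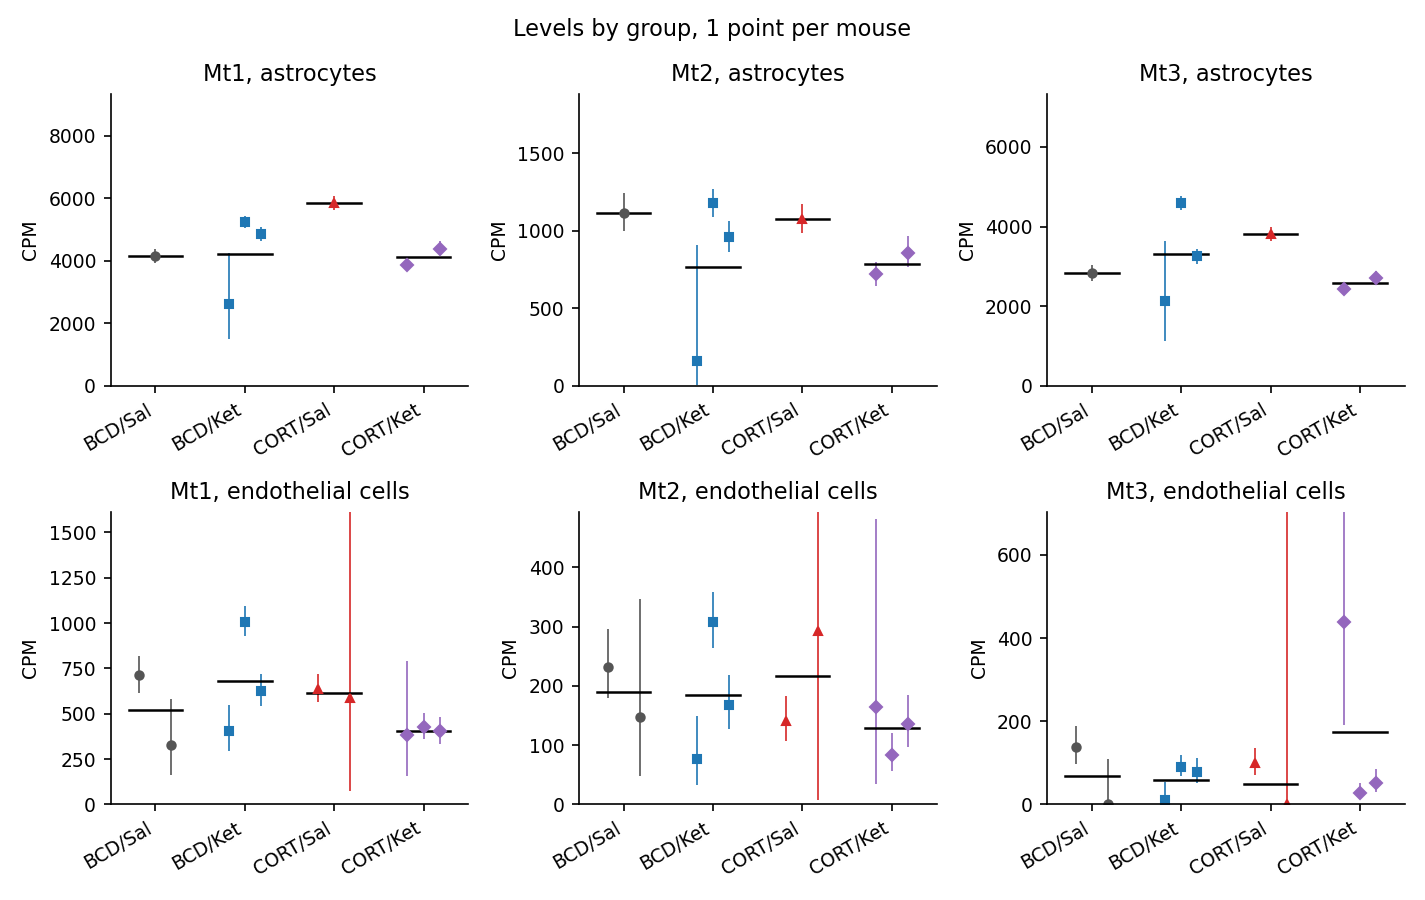
CPM of Mt1, Mt2 and Mt3 by group (x axis) in astrocytes (top) and endothelial cells (bottom); each point is 1 mouse, vertical lines are exact 95% Poisson intervals of the counts (cut at the top of the panel where longer) and black bars are group means. In astrocytes the BCD/Sal and CORT/Sal groups are 1 mouse each, the endothelial Mt1 of the 3 CORT/Ket mice sits between 385 and 427 CPM, and the widest intervals belong to mice 9946, 9967 and 9970.

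Endothelial cells, like excitatory neurons, were measured in all 10 mice. Mt1 stood at 711 and 326 CPM in the BCD/Sal mice 9901 and 9947, and at 407, 1008 and 627 in the BCD/Ket mice 9946, 9949 and 9986. It stood at 637 and 586 CPM in the CORT/Sal mice 9969 and 9970, and at 385, 427 and 403 in the CORT/Ket mice 9967, 9968 and 9971. The CORT/Ket values were close together, and the lowest BCD value, 326, was below all of them. Mouse 9967 had only 30 endothelial cells, where 1 UMI is 55 CPM, so its closeness to the other CORT/Ket mice is uncertain. Mouse 9970 had 11, where 1 UMI is 293 CPM, so its 586 CPM rests on very few UMIs. For CORT against BCD the log2 fold change was -0.55 ± 0.37 (SE, 95% interval -1.27 to 0.18, edgeR adjusted p = 1.00).

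Endothelial Mt2 stood at 232 and 148 CPM in the BCD/Sal mice, at 75.7, 308 and 168 in the BCD/Ket mice, at 141 and 293 in the CORT/Sal mice, and at 165, 83.6 and 136 in the CORT/Ket mice. The 293 CPM of mouse 9970 was a single UMI, with an exact Poisson interval of 7.42 to 1633 CPM. BCD and CORT mice overlapped. Mt2 was -0.77 ± 0.31 for CORT against BCD (95% interval -1.38 to -0.16, edgeR adjusted p = 0.85), and -0.90 ± 0.40 for CORT/Ket against BCD/Ket (edgeR adjusted p = 1.00). Without the 4 libraries with under 10 microglia it was -1.03 ± 0.28 for CORT against BCD (edgeR adjusted p = 0.32), and Mt1 was -0.74 ± 0.28 (edgeR adjusted p = 1.00). Without mouse 9949 the estimates were smaller, at -0.40 for Mt2 and -0.23 for Mt1, and Mt2 for CORT/Ket against BCD/Ket was -0.27. None of these passed. For Ket against Sal the estimates were 0.03 ± 0.38 for Mt1 and -0.12 ± 0.32 for Mt2.

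The Mt3 counts of endothelial cells were low, from 0 UMIs in mice 9947 and 9970 to 51 UMIs in mouse 9949. The 0 in mouse 9947 allowed up to 88.9 CPM (3 counts) and that in mouse 9970 up to 880 CPM. The highest level, 439.6 CPM in the CORT/Ket mouse 9967, was 8 UMIs, and the endothelial sum of that mouse also held 1044 CPM of astrocyte markers, against 189 to 1218 CPM in the other mice with any. The part of that RNA in the result was not tested. Mt3 was -0.27 ± 0.35 for CORT against BCD and -0.63 ± 0.36 for Ket against Sal, and neither passed.

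In oligodendrocytes Mt1 was 517 and 612 CPM in the BCD/Sal libraries and 392, 568 and 301 after ketamine alone (BCD/Ket). After corticosterone alone it was 553 CPM (mouse 9969), and with both it was 359 and 461 (mice 9968 and 9971). The groups overlapped, and the log2 fold change was -0.02 ± 0.28 for CORT against BCD and -0.40 ± 0.29 for Ket against Sal. In excitatory neurons Mt3 was -0.06 ± 0.37 for CORT against BCD and 0.10 ± 0.37 for Ket against Sal. In microglia Mt3 was 128, 86.4 and 34.9 CPM in the BCD mice 9901, 9949 and 9986, and 53.1, 53.7 and 25.6 CPM in the CORT mice 9969, 9968 and 9971. It was -0.84 ± 0.37 for CORT against BCD (edgeR adjusted p = 0.99), and the astrocyte markers of those microglia were 858, 678, 536, 266, 679 and 512 CPM in the same order of mice.

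Mural cells, the pericytes and smooth muscle cells of vessels, gave the largest estimate, -2.03 ± 0.78 for Mt3 in CORT/Ket against BCD/Ket (edgeR adjusted p = 1.00), which had no value without mouse 9949, 9969, 9968 or 9971. That estimate rested on 4 Mt3 UMIs in the CORT/Ket mice and 34 in the BCD/Ket mice, with 0 in mouse 9946. Mt1 was 0, 621 and 258 CPM in the BCD/Ket mice 9946, 9949 and 9986, and 153 and 117 in the CORT/Ket mice 9968 and 9971. The 0 of mouse 9946 came from 11 cells with 7685 UMIs and allowed up to 390.4 CPM. With that mouse, Mt1 was -1.53 ± 0.61 for CORT/Ket against BCD/Ket (edgeR adjusted p = 1.00), in a comparison with 0% of genes called. Without it, the value was -1.83 ± 0.42 and passed (edgeR adjusted p = 0.0282), in a fit with 0.133% of genes called. Without mouse 9949 instead, it was -0.60 and did not pass. Mural Mt1 was highest in mouse 9949, whose mural sum also held the most endothelial marker RNA, 15411 CPM against 7287 to 12019.8 in the other 6. The part of that RNA in the result was not tested.

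**Figure D5:**
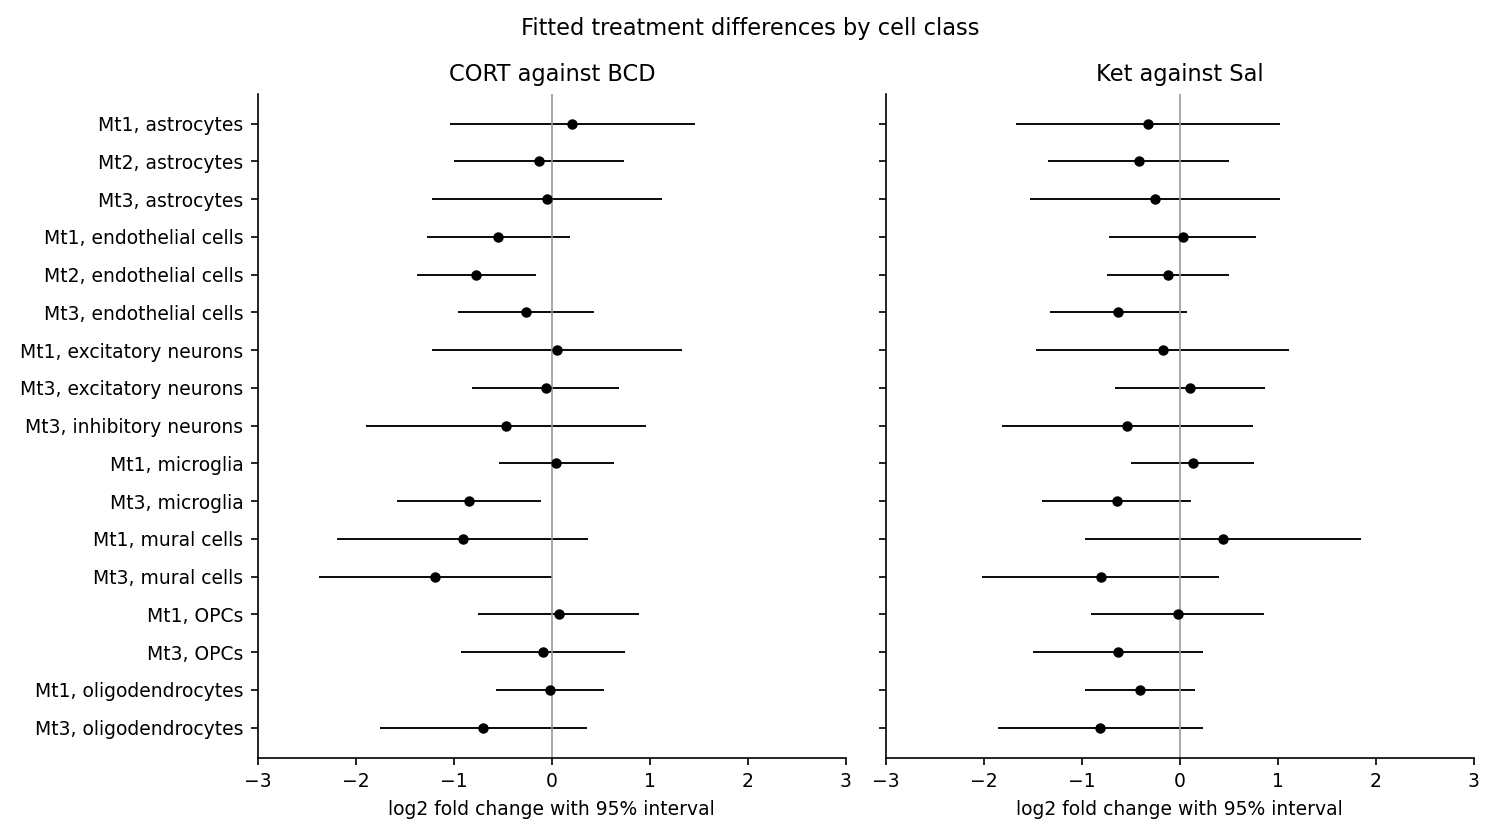
Log2 fold changes of the members for CORT against BCD (left) and Ket against Sal (right) in each class where they could be fitted, with 95% intervals from edgeR; rows are gene and class, and the vertical line is 0. All 34 adjusted p-values were above 0.05, and the intervals of Mt2 in endothelial cells and Mt3 in microglia were the ones below 0 on the left. For inhibitory neurons, which had no CORT/Sal library, the intervals are those of CORT/Ket against BCD/Ket (left) and BCD/Ket against BCD/Sal (right).

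The effect of ketamine was also compared between CORT and BCD mice, in the 2 classes with at least 2 libraries in all 4 groups. The difference of the ketamine effects was -0.82 ± 0.80 for Mt1, -0.36 ± 0.66 for Mt2 and -0.18 ± 0.73 for Mt3 in endothelial cells. In excitatory neurons it was -1.99 for Mt1 (95% interval -4.46 to 0.48) and 0.04 ± 0.78 for Mt3. None of these 5 tests passed (smallest edgeR adjusted p = 1.00).

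Genes of related pathways were read from fixed lists in the same fits. Of 18 genes known to be induced by glucocorticoids, 12 were tested in endothelial cells for CORT against BCD. Of these, 3 passed, all lower in CORT, where 0.155% of all genes were called lower. They were Tsc22d3 (-1.93 ± 0.34, edgeR adjusted p = 1.13e-05), Per1 (-1.93 ± 0.46, adjusted p = 0.022) and Ddit4 (-1.33 ± 0.33, adjusted p = 0.0408). Tsc22d3 encodes GILZ, Per1 is a clock gene with a glucocorticoid response and Ddit4 encodes an inhibitor of mTORC1. Endothelial Tsc22d3 was 257, 385, 379, 414 and 207 CPM in the BCD mice 9901, 9947, 9946, 9949 and 9986. It was 82.6, 0, 0, 83.6 and 101 CPM in the CORT mice 9969, 9970, 9967, 9968 and 9971. The measured values did not overlap, but the 0 of mouse 9970 allowed up to 880 CPM and that of mouse 9967 up to 165, so mouse 9970 does not separate the groups. Per1 was 52.8, 29.6, 66.3, 70.5 and 14.8 CPM in the BCD mice and 9.72, 293, 55.0, 5.97 and 17.4 in the CORT mice, in the same order. Ddit4 was 151, 148, 161, 141.0 and 85.7 CPM in the BCD mice and 36.5, 293, 0, 41.8 and 86.9 in the CORT mice. Both groups overlapped for these 2 genes, and the 293 CPM of mouse 9970 was 1 UMI in each. With every mouse weighted equally, mean Per1 was 46.8 CPM in BCD and 76.2 in CORT, opposite to the fitted direction. The list's median log2 fold change was -0.82, against -0.03 over all genes tested in endothelial cells, and DESeq2 called 1 of the 12. By edgeR 1 was called without each in turn of mice 9901, 9949, 9968, 9969 and 9970. In astrocytes 0 of 11 passed by edgeR for corticosterone (3 with an unadjusted p under 0.05, DESeq2 0), where 0.0385% of all genes were called.

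No gene of the metal and antioxidant lists was called. Among all tested genes edgeR called 0.0385% in astrocytes and 0.186% in endothelial cells for corticosterone. For ketamine it called 0% and 0.0155%. With so few genes called at all, counts of 0 do not set these lists apart from other genes. The counts at an unadjusted p have no such share beside them and are a description only. Of the zinc genes, which are MTF1 and the transporters of the Slc30 and Slc39 families, edgeR called 0 of 17 in astrocytes and 0 of 12 in endothelial cells for corticosterone (1 and 0 with an unadjusted p under 0.05, DESeq2 0 and 0). Levels of these genes differed between the classes. The zinc importer gene Slc39a12 averaged 327 CPM in astrocytes and 2.07 in endothelial cells, Slc30a10 136 and 3.97, and the zinc exporter gene Slc30a1 47.6 and 432. Copper genes gave 0 called of 9 in each class for corticosterone (edgeR, 1 and 0 with an unadjusted p under 0.05, DESeq2 0 and 0). Antioxidant genes gave 0 of 14 and 0 of 12 (0 and 0, DESeq2 0 and 0). Genes induced by tissue dissociation gave 0 of 5 and 0 of 15 (1 and 0, DESeq2 0 and 0), and astrocyte reactivity genes 0 of 5 and 0 of 4 (1 and 0, DESeq2 0 and 0). For ketamine edgeR called 0 list genes in both classes, with 2 glucocorticoid-induced genes in endothelial cells at an unadjusted p under 0.05 and 0 in the other lists, and DESeq2 called 0. Over all classes and 34 comparisons, the 4 list genes called by edgeR were these 3 and Tsc22d3 again, in endothelial cells for CORT/Ket against BCD/Ket (-1.98 ± 0.43, adjusted p = 0.00854).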

How the data were processed

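Per the labels and the file headers, the authors deposited raw UMI counts per gene and barcode for 10 BLA libraries, made with Cell Ranger 3.0.2 from 10x Chromium libraries. The genome named is mm9, and Seurat 3.1.1 was used later. The annotation behind the counts was not settled here. Prefrontal samples were not analysed here. The counts were filtered (mitochondrial share at or below the study's limit, at least 200 genes), scaled to 10000, and clustered with scanpy 1.11.5 and leidenalg 0.10.2 (2000 variable genes without the genes tested, 30 components, 20 neighbours, resolution 0.8). No doublets were removed in the main result. Clusters were named by at least 3 markers among 50 leading genes, and clusters with over 90% of barcodes from 1 library stayed unnamed.

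Counts were summed per class and mouse (at least 10 cells) and tested with edgeR 4.0.16 (TMM, filterByExpr, quasi-likelihood) in R 4.3.3, with DESeq2 1.42.0 as the alternative, Benjamini-Hochberg over all genes of a class, at a threshold of 0.05. Corticosterone and ketamine were terms of 1 additive fit, and single groups were compared in a fit of 4 groups. Classes were compared within mice by exact sign-flip tests of log2(CPM + 10). Intervals and limits from counts cover counting error only. Scripts were tested on simulated data. The members and gene lists were chosen with earlier results of these data known. Genes named are the members, list genes (called ones first) and the 5 genes most like each member. No value column was left without a sample (0 columns).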

Additional observations from a re-analysis of the deposited data

Results flagged for a closer look

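Barcodes left out of the comparisons also held metallothionein UMIs, above the 0.105 CPM that a count of 0 would allow. Over 10 libraries, those above the mitochondrial limit gave 695.5 CPM of Mt1 (68.1 to 1106 between libraries), 142 CPM of Mt2 (9.85 to 249.8) and 880.0 CPM of Mt3 (181 to 1542). Their Mt3 per Mt1, 1.27 in the pooled UMIs, was higher than in the astrocytes of the same mouse in 7 of 7 mice, by 0.94 on the log2 scale (exact sign-flip p = 0.0156, adjusted 0.0365 over 14 ratios), and their Mt2 per Mt1 was 0.204 against 0.206 in astrocytes. The unnamed cluster of 2358 barcodes, almost all from the CORT/Sal mouse 9970, gave 1704 CPM of Mt1, 283 of Mt2 and 1551 of Mt3 and entered no comparison, where a count of 0 would allow 0.819 CPM. No group had the 4 to 10 libraries that a check for outlying samples needs.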

How the results depend on the processing

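No paired analysis was possible because the 4 groups share no mouse. The cause of each change below was not tested, apart from the smaller number of mice or genes that a setting leaves. Each member stayed higher in astrocytes in every mouse under all settings run, but with the highest Scrublet scores removed 0 of 15 comparisons passed (adjusted 0.0503). Fewer mice remained there, and the adjustment also depends on the other pairs tested in the same setting. Leaving out 1 mouse gave 12 to 18 passing comparisons, all of those that could still be tested. Of the members by treatment, 0 were called under every setting for corticosterone and for ketamine, and 1 between single groups (mural Mt1) with at least 30 cells, without the libraries with under 10 microglia, and without mouse 9946 (0 to 1 leaving out 1 mouse).

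Directions of uncalled fold changes often turned. Astrocyte Mt1 by corticosterone was -0.0755 with at least 500 genes, -0.92 and -0.0537 at mitochondrial limits of 5% and 25%, -0.054 without high Scrublet scores, and -0.0526 with at least 30 cells or without the low-microglia libraries. Leaving out 1 mouse gave -0.0526 to 0.45, and for Mt2 -0.34 to 0.13 and Mt3 -0.29 to 0.31. Astrocyte Mt3 was 0.0895 as the average of simple contrasts and, by ketamine, 0.0722 at the 5% limit. Endothelial Mt1 by ketamine was -0.0346 with RLE factors, -0.0304 by DESeq2, -0.0217 with at least 500 genes, -0.0131 without high Scrublet scores, -0.0833 with at least 30 cells and -0.19 without the low-microglia libraries, and -0.27 to 0.52 leaving out 1 mouse (Mt2 -0.49 to 0.0556). Endothelial Mt3 by DESeq2 was 0.70 for corticosterone and 0.25 for ketamine, and -0.57 to 0.16 for corticosterone leaving out 1 mouse.

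Oligodendrocyte Mt1 by corticosterone was 0.0344 with no filter, 0.0459 with at least 500 genes, 0.10 without high Scrublet scores and 0.13 with at least 30 cells (-0.13 to 0.19 leaving out 1 mouse). Excitatory Mt3 was 0.28 with at least 500 genes and 0.0159 with tested genes kept in the clustering for corticosterone (-0.32 to 0.27). By ketamine it was -0.0121 with no filter, -0.48 with at least 500 genes, -0.19 and -0.41 at the 5% and 25% limits, -0.0272 without high Scrublet scores and -0.0362 at resolution 0.4 (-0.21 to 0.40).

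Among list genes, calls fell from 4 to 1 of 1291 tests by DESeq2 and 1 of 474 with only the groups of the contrast. They were 1 of 431 at the 5% limit and 2 of 887 with at least 30 cells. Leaving out 1 mouse gave 2 to 14, with 14 of 1131 without mouse 9949, 7 of 1228 without 9986 and 7 of 1077 without 9971. It gave 2 of 679 without 9901, 2 of 668 without 9969 and 2 of 1078 without 9970. Endothelial glucocorticoid-induced calls were 1 of 12 by DESeq2, 1 of 11 at the 5% limit, 1 of 14 with at least 30 cells and 1 of 12 without the low-microglia libraries. Leaving out 1 mouse gave 1 to 4 of these, with 1 without each of 9901, 9949, 9969, 9970 and 9968. The share of all genes called in each fit was not set beside these counts, so they describe the settings only.

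Of the neighbouring classes called, Mt1 in oligodendrocytes over mural cells was lost in 8 of 20 alternatives (adjusted p up to 0.0913) and Mt3 in excitatory neurons over precursor cells in 2 of 12 (up to 0.28). Mt2 in endothelial cells over precursor cells was lost in 1 of 16 and in oligodendrocytes over microglia in 1 of 14. Both losses came with the highest Scrublet scores removed (0.0503). Low neighbours in the class order also turned. Mt2 in excitatory minus inhibitory neurons was 0.26 with at least 500 genes, 1.17 at the 25% limit, 0.14 without high Scrublet scores, 0.45 at resolution 1.2, 0.51 with a pseudocount of 1 and 0.0081 without mitochondrial genes. Microglia minus excitatory neurons was -0.22, -1.13 and -0.23 for Mt2 at the 5% and 25% limits and resolution 0.4. For Mt1 it was -0.86 at the 25% limit and passed there, opposite to the main direction (exact sign-flip adjusted p = 0.0476). At that limit Mt1 in excitatory minus inhibitory neurons was 0.24. Mt3 in endothelial cells minus microglia, not called in the main result, was 0.75 and passed with at least 500 genes (exact sign-flip adjusted p = 0.0477). Mural cells minus oligodendrocytes was -0.25 and -0.29 for Mt2 at the 25% limit and a pseudocount of 1 (-0.0762 to 0.24 leaving out 1 mouse). For Mt3 it was 0.0134 at the 25% limit, 0.0025 without high Scrublet scores and 0.0949 without the low-microglia libraries (-0.25 to 0.0949). Mt3 in microglia minus mural cells was 0.35 at the 25% limit, 0.16 with tested genes kept and 0.11 with unscaled variable genes. Shares of astrocytes with a UMI fell with thinning to 500 UMIs, to 72.2%, 30.4% and 63.2%. The unscaled genes and the removal of the low-microglia libraries were chosen after seeing the data. Low counts limit Mt2 outside astrocytes, endothelial and ependymal cells, with 9 UMIs in excitatory neurons and 24 in microglia over all mice.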
